A study of Mus musculus with 12 samples.

Results

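The ATP-binding cassette (ABC) genes described here are the 45 genes whose platform annotation gives a single symbol made of Abc, a subfamily letter from a to g and a number, out of 18193 genes with a single symbol on the array. They fall into 14 genes of subfamily ABCA, 8 of ABCB, 10 of ABCC, 3 of ABCD, 1 of ABCE, 3 of ABCF and 6 of ABCG. The probe set with the highest mean over all arrays stood for each gene, and 26 of the 45 genes had at least 1 further probe set. The genes were chosen by name, and the probe set of each by its measured level.

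Gene expression was compared between the pregnant and the virgin state in 2 organs, lung and liver. The animals were NOD/SCID females, from an inbred strain without functional T and B lymphocytes. The mice had reached 8 to 10 weeks of age when the work started and were virgin or in day 16 of pregnancy. Each organ was ground whole, so all of its cell types contributed RNA. Each of the 4 groups, formed by organ and state, held 3 arrays, and an array carried the RNA of 2 mice pooled in equal amounts. Expression values are log2 values normalized by the authors, so a difference of 1 is a doubling. Groups are compared on the same probe sets, and the median of all probe sets serves only as a rough mark of dim signal. A value after ± is the SD over 3 pools for a level and the standard error of the fitted model for a change.

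ABC proteins bind and hydrolyse ATP with a paired nucleotide-binding domain, and most use that energy to carry a substrate across a membrane. In hepatocytes a set of them builds bile by pumping bile salts, phospholipid, sterols and conjugated compounds across the canalicular membrane, while others return organic anions to blood across the sinusoidal membrane. In lung the best known member is ABCA3, which loads surfactant lipid into the lamellar bodies of alveolar type II cells. Members of ABCE and ABCF have no membrane part and act on ribosomes.

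Array medians lay between 4.49 and 4.56, and the lowest correlation between arrays of a group was 0.992. Hepatocyte marker genes were lower in virgin lung than in virgin liver for 8 of 8 genes, and alveolar type II marker genes were higher for 4 of 4. The arrays of virgin liver pool 3 and pregnant liver pool 3 stood apart from the other 10. Their probe sets for poly-A spike-in RNA, which is added before labelling, averaged 4.95 and 5.33, against 11.8 to 12.3 on the others. For the genes called in liver, values within pools 1 and 2, within pool 3, or without these arrays are therefore also given. The p-values measure only the spread between these pools, and with 3 arrays a group their precision is limited. In ground organs, fewer cells of a type and less RNA per cell cannot be told apart.

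In liver, 13 of the 45 ABC genes differed between pregnant and virgin mice at a Benjamini-Hochberg adjusted p under 0.05 over all genes (limma), which is 28.9% of them against 13.6% of all genes. Of these, 9 were lower in pregnancy, where 7.62% of all genes were, and 4 were higher, where 6.02% of all genes were. The largest decreases were in Abcc3, which exports organic anions to blood, in the sterol exporter pair Abcg5 and Abcg8, and in Abca8a. The increases were smaller, from 0.29 for Abca5 to 0.48 for Abca8b, with Abcf2 and Abcg2 between them. Only 2 changes, those of Abcc3 and Abcg5, reached 2-fold, and 7 of the 13 were under 0.5 on the log2 scale. The median change was -0.04 over the 45 genes and -0.01 over all genes. The 3 pregnant pools lay entirely above or below the 3 virgin pools in 21 of the 45 genes, while this held in 28% of all genes.

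The calls were spread over the subfamilies. Counts by subfamily here, and by role below, stand against the 7.62% of all genes that were lower and the 6.02% that were higher in pregnant liver. In the small sets, 1 call is not a result about the set. In ABCG, 3 of 6 genes fell and 1 rose, with a median of -0.25. In ABCC, 2 of 10 fell and none rose, and the median of -0.30 was the lowest of the 7 subfamilies. In ABCB, 2 of 8 fell and none rose, with a median of -0.21. ABCA gave calls in both directions, 2 higher and 1 lower of 14, around a median of 0.14. Among the small subfamilies, 1 of 3 ABCD genes fell and 1 of 3 ABCF genes rose, and the single ABCE gene was not called. The 32 genes without a call had changes between -0.46 and 0.44.

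**Figure D1:**
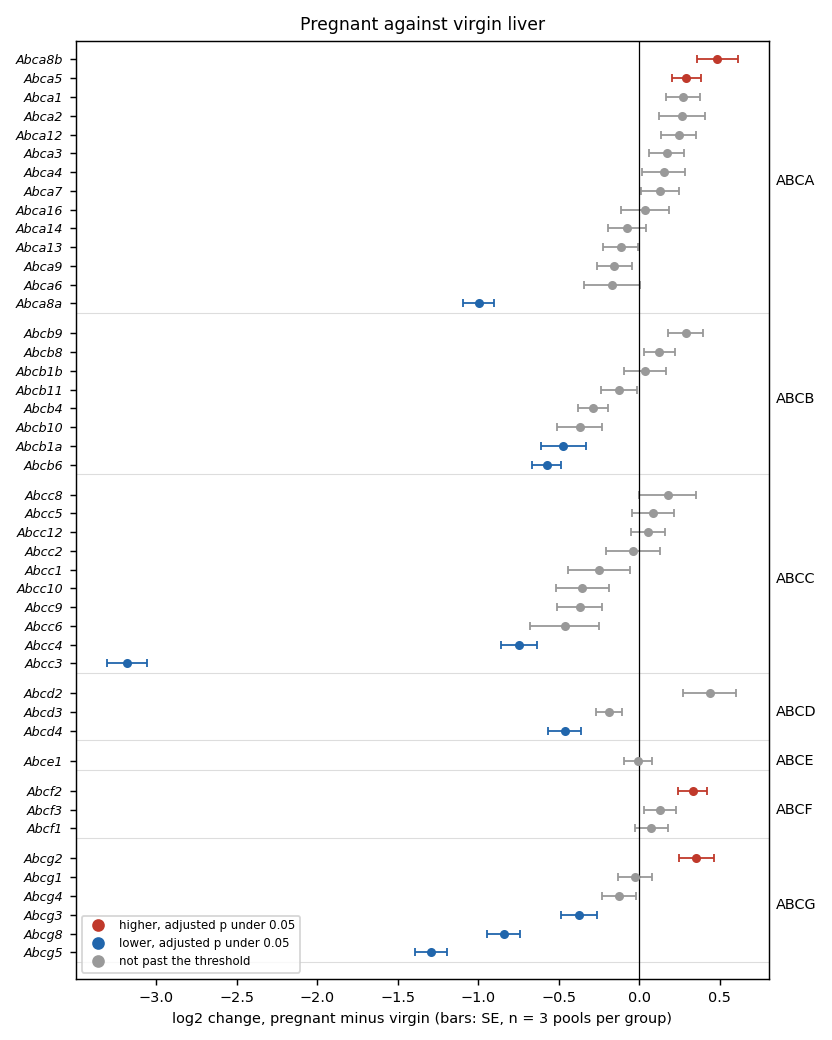
Each point is the log2 change of 1 ABC gene in liver, pregnant minus virgin, with its standard error (3 pools per group), ordered within the 7 subfamilies; colour marks the adjusted p under 0.05. Abcc3 stands alone at -3.18, and the next lowest, Abcg5 at -1.29, is in another subfamily.

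Canalicular exporters were measured by 8 genes, of which 3 fell, 1 rose and 4 did not pass. The sterol exporters Abcg5 and Abcg8 encode proteins that work only as a heterodimer, moving cholesterol and plant sterols from the hepatocyte into bile. Abcg5 measured 10.11, 10.23 and 10.19 in virgin liver pools 1 to 3 and 8.93, 8.84 and 8.90 in pregnant liver pools 1 to 3. The pregnant pools all lay more than 1 log2 unit under the virgin pools, and the gene fell by 1.29 ± 0.10, or 2.45-fold (adjusted p = 1.03e-06). Abcg8 measured 8.56, 8.72 and 8.72 in virgin and 7.90, 7.60 and 7.97 in pregnant liver, again without overlap, and fell by 0.84 ± 0.10, or 1.79-fold (adjusted p = 9.00e-05). The change of Abcg5 was -1.29 in pools 1 and 2 and -1.30 in pool 3. That of Abcg8 was -0.89 in pools 1 and 2 and -0.75 in pool 3.

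Abcg5 and Abcg8 are neighbours on chromosome 17 and are read in opposite directions. The start site of Abcg5 and the nearer RefSeq start site of Abcg8 have 109 bases between them. The stretch between those sites is upstream of both sites and is shown here because both genes fell. Abcg8 also has an earlier RefSeq start site (window chr17:84676052-84676351), and the stretch is not upstream of that one. The printed stretch lies at chr17:84683012-84683120 of GRCm38.p6, printed on the plus strand (the strand of Abcg8) from RefSeq. Capitals mark a match to TATAAA, which lies on the minus strand, the strand of Abcg5. A match is a run of letters only and shows no binding.
Abcg5 to Abcg8: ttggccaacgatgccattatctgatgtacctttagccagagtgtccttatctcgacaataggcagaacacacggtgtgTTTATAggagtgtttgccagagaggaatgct

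The other canalicular pumps differed less. Abcb11 encodes the bile salt export pump, which drives bile salt secretion. It measured 11.19, 10.99 and 11.23 in virgin and 10.92, 11.02 and 11.11 in pregnant liver, and the groups overlapped. Its change of -0.13 ± 0.11 did not pass (adjusted p = 0.527, 95% interval -0.37 to 0.12). Abcb4, the phosphatidylcholine translocator of bile, measured 10.36, 10.18 and 10.22 in virgin and 10.04, 9.92 and 9.93 in pregnant liver. Its groups did not overlap, yet the change of -0.29 ± 0.09 missed the threshold (adjusted p = 0.0582). It passed in 4 alternative settings: dim genes left out, probe sets averaged per gene, arrays centred on their median, and a variance trend with robust moderation. With each of the 6 liver arrays left out in turn it missed every time. Abcc2, which exports glucuronide and glutathione conjugates including conjugated bilirubin, measured 7.84, 7.97 and 7.53 in virgin and 7.87, 7.78 and 7.57 in pregnant liver. These groups overlapped, with a change of -0.04 ± 0.17 (adjusted p = 0.916, 95% interval -0.40 to 0.32).

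The broad drug exporters moved in different directions. Abcg2 encodes the breast cancer resistance protein and rose from 8.62, 8.58 and 8.61 in virgin to 8.79, 8.86 and 9.23 in pregnant liver, a change of 0.35 ± 0.11 (adjusted p = 0.0455). The groups did not overlap, but the highest pregnant value came from pool 3, and the change was 0.22 in pools 1 and 2 and 0.62 in pool 3. Abcb1a, a P-glycoprotein gene, measured 4.98, 5.04 and 4.67 in virgin and 4.66, 4.27 and 4.36 in pregnant liver and fell by 0.47 ± 0.14 (adjusted p = 0.0375). The lowest virgin pool and the highest pregnant pool lay side by side, and most liver values were near the median of all probe sets on the arrays, 4.53. Its further probe set, which lay under that median in liver, gave 0.18 ± 0.12 without passing, so the probe sets of Abcb1a differ in sign. The second P-glycoprotein gene, Abcb1b, ran from 2.82 to 3.41 on all 12 arrays, under the median.

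Export of organic anions across other membranes was represented by 7 genes, of which 2 fell and 5 did not pass. Abcc3 encodes the pump that returns glucuronides and bile salts from the hepatocyte to sinusoidal blood. It measured 9.65, 9.75 and 9.76 in virgin and 6.29, 6.52 and 6.81 in pregnant liver, with more than 2 log2 units between the closest pools. Abcc3 fell by 3.18 ± 0.12, or 9.07-fold (adjusted p = 8.31e-10), the largest change of any ABC gene in either organ. The change was -3.30 in pools 1 and 2 and -2.95 in pool 3. In lung the same gene measured 7.42, 7.25 and 7.16 in virgin and 7.32, 7.28 and 7.46 in pregnant mice, and the groups overlapped.

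Abcc4, which carries cyclic nucleotides, prostaglandins and, together with glutathione, bile salts out of the cell, is the other sinusoidal pump that fell. Its values were 7.16, 7.22 and 7.01 in virgin and 6.16, 6.41 and 6.56 in pregnant liver. The groups did not overlap, and the decrease was 0.75 ± 0.11, or 1.68-fold (adjusted p = 0.000414). The change was -0.90 in pools 1 and 2 and -0.44 in pool 3, so the arrays without spike-in signal gave the smaller difference. In lung Abcc4 measured 7.54, 7.41 and 7.44 in virgin and 7.63, 7.56 and 7.41 in pregnant mice, with overlap.

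Abcc6, a hepatocyte protein needed for the release of ATP into blood and for the prevention of soft-tissue calcification, measured 9.13, 9.12 and 9.24 in virgin and 8.62, 8.63 and 8.84 in pregnant liver. These groups did not overlap, but the change of -0.46 ± 0.21 did not pass (adjusted p = 0.178). The fit uses 1 spread for all groups, and the virgin lung pools of Abcc6 ran from 3.79 to 4.82. With the 6 liver arrays alone its adjusted p was 0.0277. That fit called 9 ABC genes, Abcc6 and 8 of the 13 above. It lost the calls of Abca5, Abcb1a, Abcf2, Abcg2 and Abcg3. Abcc1, a widely expressed exporter of glutathione conjugates and leukotriene C, gave a difference of -0.25 ± 0.19. For Abcc10 it was -0.35 ± 0.16, for Abcc5 0.09 ± 0.13 and for Abcc12 0.05 ± 0.11, none past the threshold.

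**Figure D2:**
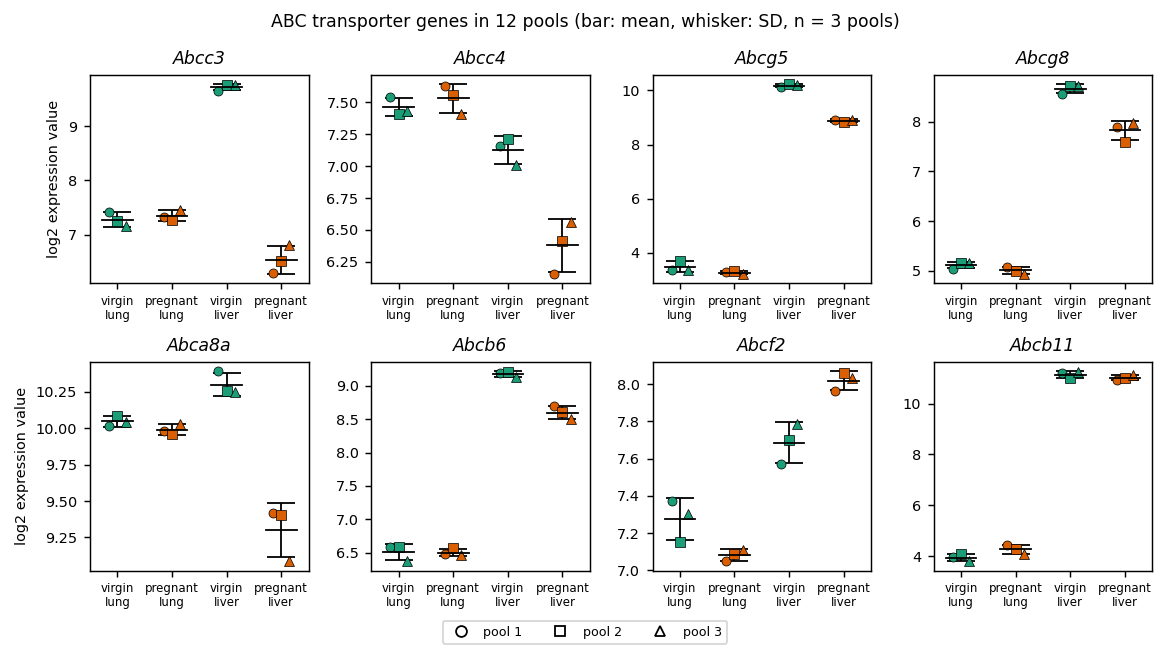
Log2 expression values of 8 ABC genes in the 12 pools, with symbols for the pool number, bars for the group mean and whiskers for the SD over 3 pools; each panel has its own axis, which does not start at 0. In the panels of Abcc3, Abcc4, Abcg5, Abcg8, Abca8a and Abcb6 the pregnant liver pools lie under all virgin liver pools, in Abcf2 they lie above them, and in Abcb11 they overlap.

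Lipid efflux to lipoproteins was represented by 4 genes, none of which passed in liver. Abca1, which hands cholesterol and phospholipid to lipid-poor apolipoprotein A-I, measured 10.74, 10.77 and 10.69 in virgin and 10.92, 11.05 and 11.03 in pregnant liver. The pregnant pools were all higher, but the change of 0.27 ± 0.11 missed the threshold (adjusted p = 0.12). One of its further probe sets was called in liver at 0.54 ± 0.14 (adjusted p = 0.0208 over all probe sets), the only further ABC probe set of 47 that was. Abcg1, which moves sterol towards high-density lipoprotein, measured 7.98, 8.13 and 8.15 in virgin and 8.02, 8.08 and 8.08 in pregnant liver. Its groups overlapped, with a change of -0.03 ± 0.11 (adjusted p = 0.916, 95% interval -0.25 to 0.20). The differences of the related genes Abca7 and Abcg4 were 0.13 ± 0.12 and -0.13 ± 0.11, neither past the threshold.

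The remaining 12 ABCA genes gave 2 increases and 1 decrease, all of them in a run of 5 neighbouring genes on chromosome 11, Abca8b, Abca8a, Abca9, Abca6 and Abca5 in RefSeq order on GRCm38.p6. The substrates of these proteins are poorly defined compared with those of ABCA1 or ABCA3. Abca8a measured 10.39, 10.26 and 10.25 in virgin and 9.42, 9.40 and 9.09 in pregnant liver and fell by 1.00 ± 0.10 (adjusted p = 1.12e-05). Every pregnant pool was lower by more than 0.5 log2 units than any virgin pool, and the change was -0.91 in pools 1 and 2 and -1.17 in pool 3. Its neighbour Abca8b measured 7.32, 7.39 and 7.50 in virgin and 7.84, 7.84 and 8.00 in pregnant liver and rose by 0.48 ± 0.13 (adjusted p = 0.0201). The neighbours thus changed in opposite directions, each without overlap between the groups.

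At the other end of the run, Abca5, which is found in lysosomes and late endosomes, measured 7.46, 7.33 and 7.27 in virgin and 7.68, 7.60 and 7.65 in pregnant liver and rose by 0.29 ± 0.09 (adjusted p = 0.0404). Its further probe set was under the median level in all 4 groups and gave -0.11 ± 0.11, without passing. Abca9 and Abca6, which lie between, differed by -0.16 ± 0.11 and -0.17 ± 0.17 and did not pass. The bases before the start sites of Abca8a and Abca8b are printed because these neighbours changed in opposite directions. Both windows are on the minus strand of chromosome 11 in GRCm38.p6 and hold the 250 bases before the RefSeq start site, at chr11:110095938-110096187 for Abca8a and chr11:109995846-109996095 for Abca8b. Capitals mark a match to GGGCGG, read from the other strand, in Abca8b, and the Abca8a window held no match to any motif searched.
Abca8a: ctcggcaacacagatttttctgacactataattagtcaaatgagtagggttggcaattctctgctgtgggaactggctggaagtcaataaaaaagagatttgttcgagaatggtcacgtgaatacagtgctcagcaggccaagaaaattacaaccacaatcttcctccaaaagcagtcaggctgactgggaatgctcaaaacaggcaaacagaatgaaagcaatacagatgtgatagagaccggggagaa
Abca8b: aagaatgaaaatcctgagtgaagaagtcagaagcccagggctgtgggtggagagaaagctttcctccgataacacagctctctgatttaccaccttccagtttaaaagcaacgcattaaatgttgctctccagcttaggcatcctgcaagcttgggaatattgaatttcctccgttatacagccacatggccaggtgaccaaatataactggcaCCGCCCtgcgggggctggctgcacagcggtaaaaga

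Abca3, the surfactant lipid transporter, measured 10.38, 10.24 and 10.42 in virgin and 10.42, 10.49 and 10.65 in pregnant liver, with overlap and a change of 0.17 ± 0.11 (adjusted p = 0.348). The other members of this group, Abca2, Abca4, Abca12, Abca13, Abca14 and Abca16, had liver changes from -0.12 to 0.26 and none passed. Abca12, Abca13, Abca14 and Abca16 were under the median level of 4.53 in all 4 groups, as were Abcb1b and Abcc8, so their values say little about their transcripts.

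Among the carriers of mitochondria and neighbouring membranes, 1 of 3 genes fell. Abcb6, a porphyrin transporter, measured 9.19, 9.21 and 9.13 in virgin and 8.69, 8.60 and 8.50 in pregnant liver. No pregnant pool reached the virgin range, and the gene fell by 0.58 ± 0.09, or 1.49-fold (adjusted p = 0.000641). Abcb10, an inner-membrane protein of mitochondria with a part in heme synthesis, differed by -0.37 ± 0.14 and did not pass (adjusted p = 0.103). Of the 21 alternatives it passed only without pregnant liver pool 3 and without both pool 3 arrays. The difference of Abcb8, another inner-membrane protein, was 0.12 ± 0.10 and did not pass.

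Of 4 peroxisomal and lysosomal carriers, 1 fell. Abcd4, which helps vitamin B12 leave the lysosome, measured 7.03, 6.79 and 7.03 in virgin and 6.53, 6.57 and 6.37 in pregnant liver and fell by 0.46 ± 0.10 (adjusted p = 0.00831). The change was -0.36 in pools 1 and 2 and -0.66 in pool 3, and without both pool 3 arrays it was -0.36 and missed the threshold (adjusted p = 0.0794). Abcd3, which brings branched-chain acids and bile acid intermediates into peroxisomes, measured 11.93, 11.95 and 11.81 in virgin and 11.72, 11.65 and 11.75 in pregnant liver. The pregnant pools were all lower, but the change of -0.19 ± 0.08 did not pass (adjusted p = 0.153). The differences of Abcd2, a carrier of very long chain fatty acids, and Abcb9, a lysosomal peptide carrier, were 0.44 ± 0.16 and 0.29 ± 0.11, neither past the threshold.

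The ribosome factors gave 1 increase in 4 genes. Abcf2 measured 7.57, 7.70 and 7.79 in virgin and 7.96, 8.06 and 8.03 in pregnant liver and rose by 0.33 ± 0.09 (adjusted p = 0.0245). Abce1, which splits ribosomes after termination, gave a difference of -0.01 ± 0.09 with a 95% interval of -0.20 to 0.18. Those of Abcf1, a translation initiation factor, and Abcf3 were 0.07 ± 0.10 and 0.13 ± 0.10, neither past the threshold. The sulfonylurea receptor genes Abcc8 and Abcc9, regulatory subunits of potassium channels, gave 0.18 ± 0.18 and -0.37 ± 0.14 without passing. Abcg3, a rodent relative of Abcg2, fell by 0.38 ± 0.11 (adjusted p = 0.0388) from values of 5.32, 5.32 and 5.27 to 5.15, 4.79 and 4.85.

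The liver calls were not equally firm. With each of the 6 liver arrays left out in turn, 7 of the 13 genes passed every time (Abca8a, Abcb6, Abcc3, Abcc4, Abcd4, Abcg5 and Abcg8), and all of these except Abcd4 passed in all 21 alternatives. The other 6 lost the call at least once. Abca5 passed only without virgin pool 1, and its highest adjusted p was 0.123. Abcg2 and Abcg3 passed only without pregnant pool 1, with highest values of 0.128 and 0.135, and without pregnant pool 3 the change of Abcg2 was 0.22. Abcb1a and Abcf2 missed without pregnant pool 2 or 3 or virgin pool 1 or 2, with highest values of 0.133 and 0.0972. Abca8b missed without pregnant pool 3 or virgin pool 1 or 2, with a highest value of 0.0706. The count of called genes was 8 without pregnant pool 2, pregnant pool 3 or virgin pool 1. Without both pool 3 arrays it was 9, of which 8 were among the 13 and 1, Abcb10, was not. The 5 lost there were Abca5, Abca8b, Abcd4, Abcg2 and Abcg3. The change of Abca5 was 0.25 in pools 1 and 2 and 0.39 in pool 3, and that of Abca8b was 0.48 in pools 1 and 2 and 0.49 in pool 3. For Abcg3 it was -0.35 in pools 1 and 2 and -0.42 in pool 3, and for Abcb1a -0.55 in pools 1 and 2 and -0.31 in pool 3. For Abcb6 it was -0.55 in pools 1 and 2 and -0.63 in pool 3, and for Abcf2 0.38 in pools 1 and 2 and 0.25 in pool 3. Each kept its sign in both sets of pools. With pool 3 as a block in the fit, the same 13 genes passed.

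**Figure D3:**
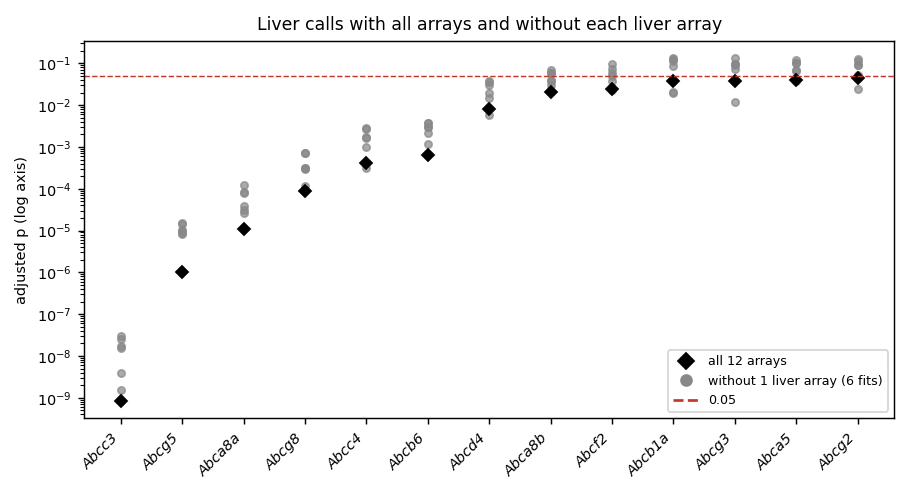
Adjusted p of the 13 called ABC genes in liver on a log axis, with all 12 arrays (diamonds) and with each of the 6 liver arrays left out (circles); the dashed line is the threshold of 0.05. The circles of 7 genes stay under the line, and those of Abca8b, Abcf2, Abcb1a, Abcg3, Abca5 and Abcg2 lie on both sides of it.

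In lung, 0 of the 45 genes were called by limma between pregnant and virgin mice, where 0.594% of all genes were. At an unadjusted p under 0.05 there were 2, where 9.87% of all genes were: Abca9 at 0.25 ± 0.11 and Abcb11 at 0.32 ± 0.11, which is under the median of all probe sets in lung. The 45 changes ran from -0.36 for Abca6 to 0.32 for Abcb11, and the lowest adjusted p was 0.301. Their 95% intervals lay between -0.73 and 0.56. This leaves room for changes of the size of several liver calls, but not of those of Abcc3, Abcg5, Abca8a, Abcg8 and Abcc4. Abcg5 itself was under the median of all probe sets in lung, so its interval says little about its transcript there. The pools of the 2 states did not overlap in 8 genes, where this held in 18.4% of all genes. No ABC gene was called in lung under any of the 21 alternatives.

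Genes with known roles in lung were among those without a call. Abca3 measured 10.94, 10.85 and 11.02 in virgin and 11.11, 10.76 and 10.99 in pregnant lung, a change of 0.02 ± 0.11 with a 95% interval of -0.21 to 0.25. Abcg1, which alveolar macrophages and type II cells need to clear sterol, measured 10.64, 10.41 and 10.43 in virgin and 10.38, 10.50 and 10.74 in pregnant lung, a change of 0.05 ± 0.11 with an interval of -0.18 to 0.28. Abca1 measured 9.84, 9.84 and 9.68 in virgin and 9.80, 9.61 and 10.06 in pregnant lung, a change of 0.04 ± 0.11. The virgin and pregnant pools overlapped in each of these 3 genes.

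Drug exporters of barrier cells were well measured in lung. Abcb1a measured 6.78, 7.18 and 7.19 in virgin and 7.03, 7.11 and 7.20 in pregnant lung, with overlap and a change of 0.06 ± 0.14. Abcg2 measured 7.65, 7.47 and 7.63 in virgin and 7.45, 7.40 and 7.46 in pregnant lung. Its pregnant pools were all lower, the reverse of liver, but the change of -0.14 ± 0.11 did not pass (adjusted p = 0.772). The change of Abcc1 in lung was -0.02 ± 0.19, with a 95% interval of -0.43 to 0.40.

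Of the 8 canalicular exporters, Abcb11, Abcc2, Abcg5 and Abcb1b were under the median of all probe sets in lung in both states, and the other 4 were above it. Abcb11 measured 3.95, 4.08 and 3.81 in virgin and 4.44, 4.27 and 4.09 in pregnant lung, without overlap, and Abcc2 2.24, 2.41 and 2.74 and 2.32, 2.86 and 2.40, with overlap. Abcb4 measured 5.43, 5.38 and 5.43 in virgin and 5.37, 5.55 and 5.65 in pregnant lung, and Abcc6 3.79, 4.82 and 4.67 and 4.58, 4.72 and 4.20, both with overlap. The peroxisomal carrier Abcd3 was bright in both organs, at 10.49, 10.40 and 10.45 in virgin and 10.26, 10.33 and 10.27 in pregnant lung. Its pregnant lung pools did not overlap the virgin ones, and the change of -0.16 ± 0.08 did not pass. Over all 6 lung pools, Abca5 ran from 9.26 to 9.44, Abca8b from 5.09 to 5.75, Abcd4 from 6.30 to 6.67 and Abcg3 from 4.89 to 5.26. The lung changes of these 4 genes, all called in liver, lay between -0.16 and 0.19.

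The change in lung minus the change in liver was tested in the same model and passed for 7 of the 45 genes, or 15.6% against 6.71% of all genes. It was above 0 in 6 of them and below 0 in 1, where 3.34% and 3.37% of all genes were. For 6 of them the decrease in liver had no counterpart of that size in lung. The difference was 3.26 ± 0.17 for Abcc3 (adjusted p = 6.54e-08), 1.08 ± 0.14 for Abcg5 (adjusted p = 0.00038) and 0.94 ± 0.14 for Abca8a (adjusted p = 0.000918). It was 0.82 ± 0.16 for Abcc4 (adjusted p = 0.00622), 0.73 ± 0.15 for Abcg8 (adjusted p = 0.00774) and 0.56 ± 0.13 for Abcb6 (adjusted p = 0.016). In lung Abcg5 measured 3.38, 3.72 and 3.35 in virgin and 3.28, 3.31 and 3.23 in pregnant mice. All of these lie under the median of all probe sets, and the pregnant pools were lower without overlap, at -0.21 ± 0.10 (adjusted p = 0.516). The lung pools of Abcg8 measured 5.05, 5.16 and 5.15 in virgin and 5.08, 5.01 and 4.95 in pregnant mice. Those of Abca8a measured 10.02, 10.09 and 10.04 and 9.98, 9.96 and 10.03, and those of Abcb6 6.59, 6.58 and 6.38 and 6.48, 6.57 and 6.46. The groups overlapped in each of the last 3 genes.

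Abcf2 was the only gene of the 7 with a difference in the other direction. It measured 7.37, 7.15 and 7.30 in virgin and 7.05, 7.09 and 7.11 in pregnant lung, where the pregnant pools were lower without overlap but the change of -0.19 ± 0.09 did not pass, and the difference of -0.53 ± 0.13 did (adjusted p = 0.023). With each of the 12 arrays left out in turn, the difference passed every time for the other 6 genes. For Abcf2 it missed without virgin lung pool 1 or 3, pregnant lung pool 1, virgin liver pool 1 or pregnant liver pool 2, with a highest adjusted p of 0.0617. The other 6 genes called in liver (Abca5, Abca8b, Abcb1a, Abcd4, Abcg2 and Abcg3) were not shown to differ between the organs, with differences from -0.50 for Abcg2 to 0.53 for Abcb1a.

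**Figure D4:**
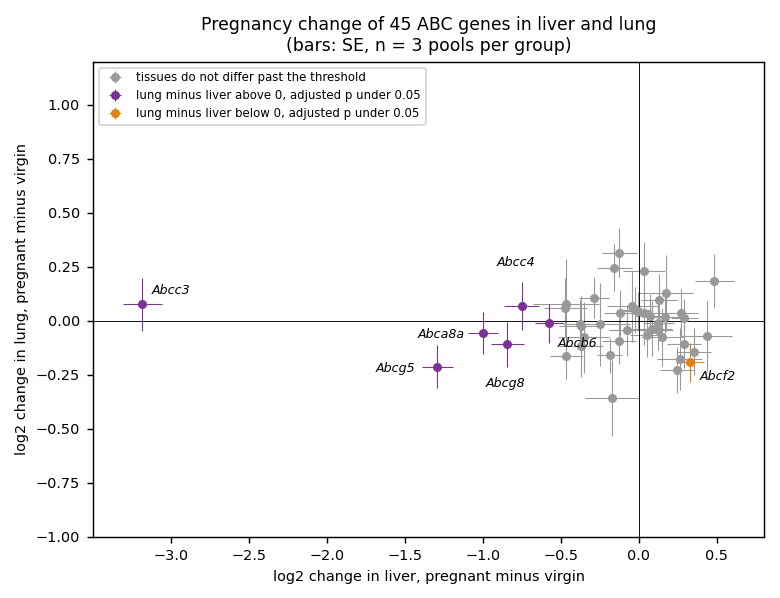
Log2 change of the 45 ABC genes in liver (horizontal axis) and in lung (vertical axis, drawn at a larger scale), pregnant minus virgin, with standard errors (3 pools per group); colour marks genes whose lung change minus liver change passed. Abcc3 lies at -3.18 in liver and 0.08 in lung, and no gene lies beyond -0.36 or 0.32 in lung.

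Between the virgin organs, 36 of the 45 genes differed, or 80% against 68.7% of all genes. Liver was higher for 27 genes and lung for 9, while over all genes 34.4% were higher in liver and 34.3% in lung. The pools of the virgin organs did not overlap in 38 of the 45 genes, where this held in 73.2% of all genes. The median difference, lung minus liver, was -0.46 over the ABC genes and -0.07 over all genes. The largest differences were those of 4 bile pumps and Abcc6, a hepatocyte protein of another role. Abcb11 had a virgin lung mean of 3.95 ± 0.14 against 11.14 ± 0.13 in liver, a difference of -7.19 ± 0.11 (adjusted p = 6.10e-16). Abcg5 differed by -6.69 ± 0.10, Abcc2 by -5.32 ± 0.17, Abcb4 by -4.84 ± 0.09, Abcc6 by -4.74 ± 0.21 and Abcg8 by -3.55 ± 0.10. In lung, Abcb11, Abcc2 and Abcg5 were under the median of all probe sets, so the sizes of these differences are uncertain. The only probe set of Abcc2 has a suffix that marks sequence shared with other transcripts.

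Genes outside the bile pumps were also higher in virgin liver. The means of Abcb6, the porphyrin transporter, were 6.51 ± 0.12 in lung and 9.17 ± 0.04 in liver, a difference of -2.66 ± 0.09. In the run of ABCA genes on chromosome 11, Abca6 differed by -2.92 ± 0.17 and Abca8b by -2.14 ± 0.13, both higher in liver, while Abca9 differed by 0.67 ± 0.11 and Abca5 by 1.97 ± 0.09, both higher in lung. Neighbouring genes of this run thus differed between the organs in opposite directions, as Abca8a and Abca8b did between pregnant and virgin liver. The peroxisomal carrier Abcd3 differed by -1.45 ± 0.08 and Abca1 by -0.94 ± 0.11, both higher in liver.

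Lung was higher by more than 1 log2 unit for 5 genes. Abcg1 had a mean of 10.49 ± 0.13 in virgin lung and 8.09 ± 0.09 in virgin liver, a difference of 2.41 ± 0.11. Its further probe set differed by less, 0.66 ± 0.14. Abcc1 was higher in lung by 2.33 ± 0.19, Abcb1a by 2.15 ± 0.14, Abca5 by 1.97 ± 0.09 and Abca7 by 1.33 ± 0.12, each past the threshold. The further probe set of Abcb1a gave 2.39 ± 0.12. Those of Abcc1 and Abca5, under the median level in all groups, gave 0.22 ± 0.17 and 0.10 ± 0.11. ABCC1 and the P-glycoproteins guard barrier cells against toxic compounds, and ABCG1 and ABCA7 move lipid. Abca3 was higher in lung by only 0.59 ± 0.11 (adjusted p = 0.000213), and a further probe set of it differed by 0.14 ± 0.12 without passing. The probe set used for Abca3 ran from 10.24 to 10.65 in the 6 liver pools and from 10.76 to 11.11 in the 6 lung pools, so the ranges did not overlap.

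**Figure D5:**
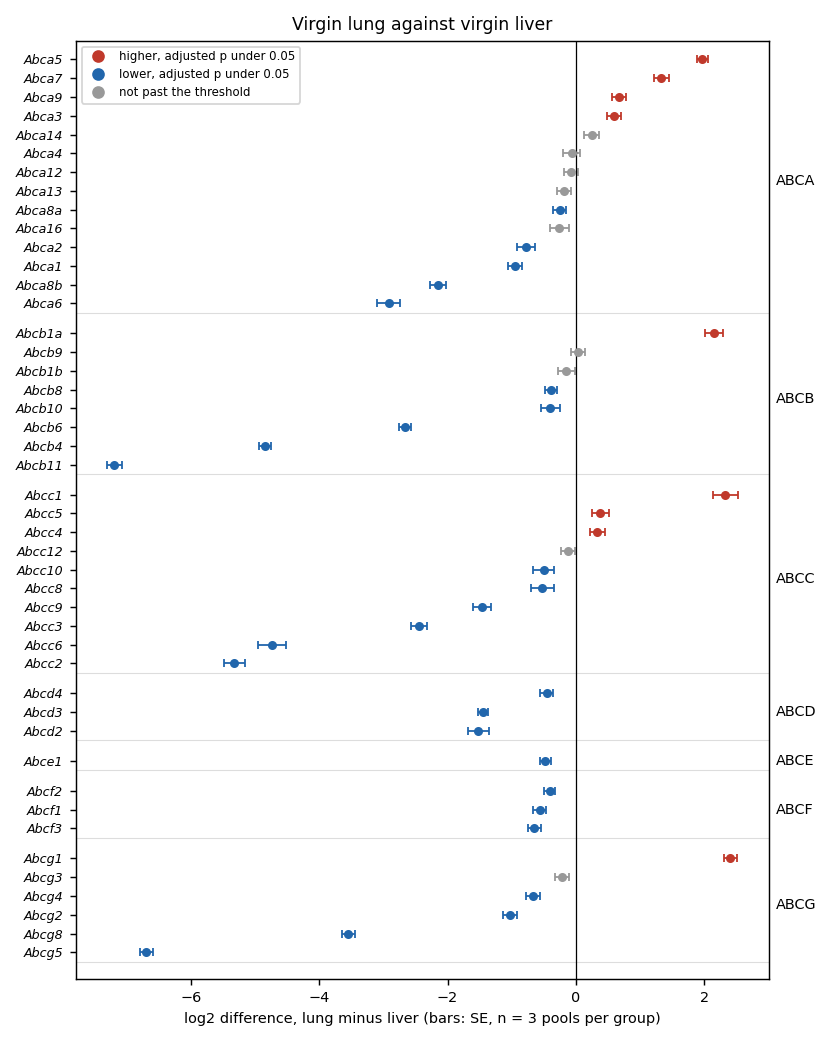
Log2 difference of each ABC gene between virgin lung and virgin liver, lung minus liver, with its standard error (3 pools per group), ordered within subfamilies; colour marks the adjusted p under 0.05. Abcb11, Abcg5, Abcc2, Abcb4 and Abcc6 lie more than 4 log2 units towards liver, and Abcg1, Abcc1, Abcb1a, Abca5 and Abca7 more than 1 unit towards lung.

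For Abcc3 the order of the organs differed between the states. Its mean was 7.28 ± 0.13 in virgin lung and 9.72 ± 0.06 in virgin liver, a difference of -2.44 ± 0.12 (adjusted p = 2.03e-10). In pregnant mice the means were 7.35 ± 0.10 in lung and 6.54 ± 0.26 in liver, so that lung was higher by 0.81 ± 0.12 (adjusted p = 3.50e-05). Abca8a was called in both contrasts with opposite signs too, at -0.25 ± 0.10 in virgin mice (adjusted p = 0.0341) and 0.69 ± 0.10 in pregnant mice (adjusted p = 2.10e-05). Its difference in virgin mice was weak: it missed the threshold without any 1 of the 3 virgin lung arrays or without virgin liver pool 1, with a highest adjusted p of 0.117. Abcc4 was higher in lung in both states, by 0.33 ± 0.11 in virgin mice (adjusted p = 0.016) and by 1.15 ± 0.11 in pregnant mice (adjusted p = 3.38e-07). Without virgin lung pool 1 or virgin liver pool 3 the former missed the threshold, with a highest adjusted p of 0.0664. In pregnant mice, 35 ABC genes were called between the organs, or 77.8% against 71.5% of all genes. Lung was higher for 11 of them and liver for 24, while over all genes 34.4% were higher in lung and 37.2% in liver, and the pools did not overlap in 36 of the 45 genes (74.1% of all genes).

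Genes that work with ABC transporters were read from lists. Counts in these lists stand against the 7.62% of all genes that were lower and the 6.02% that were higher in pregnant liver. Of 21 measured partners in bile formation, 9 fell and 1 rose in pregnant liver. The uptake carriers Slco1a4 and Slc10a1, which bring organic anions and bile salts into the hepatocyte from blood, changed by -1.07 ± 0.18 (adjusted p = 0.00138) and -0.94 ± 0.24 (adjusted p = 0.0196). Cyp27a1, which starts the acidic pathway of bile acid synthesis, changed by -0.89 ± 0.10 (adjusted p = 3.19e-05), and the gene that rose was the oxysterol hydroxylase Cyp7b1 at 0.81 ± 0.14. Of the other sinusoidal uptake carriers in the list, Slco1b2 and Slco2b1 fell, at -0.70 ± 0.14 and -0.42 ± 0.10. Slco1a1 at -0.17 ± 0.12 (adjusted p = 0.395) and Slc22a7 at 0.55 ± 0.19 (adjusted p = 0.0689) did not pass.

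Among 20 regulators of transporter genes, 5 fell and none rose in liver. Srebf1, a regulator of lipid synthesis genes, changed by -1.25 ± 0.10 (adjusted p = 1.59e-06), Nr0b2, the corepressor SHP, by -0.70 ± 0.21 (adjusted p = 0.0373) and Srebf2, a regulator of sterol synthesis and uptake genes, by -0.53 ± 0.08 (adjusted p = 0.000626). The other 2 were Nr3c1 at -0.37 ± 0.09 and Fgfr4 at -0.43 ± 0.11. The receptor genes Nr1h4 and Nr1h3, which encode the bile acid receptor FXR and the oxysterol receptor LXR-alpha, gave -0.32 ± 0.14 and -0.03 ± 0.11 and were not called. Of 18 sterol and lipoprotein partners, 5 fell, with Cyp27a1 (in both lists), Stard4 at -0.65 ± 0.13 and Pltp at -0.64 ± 0.13 changing most, and 2 rose (Lcat and Stard5).

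In the list of 16 detoxification enzymes that make substrates for efflux pumps, 4 fell and 1 rose in liver, again beside 7.62% and 6.02% of all genes. Cyp2b10, a drug-metabolizing cytochrome, changed by -1.17 ± 0.12 (adjusted p = 1.49e-05), Gclm, a subunit of the enzyme that makes glutathione's precursor, by -0.64 ± 0.13, and Gstp1, a glutathione transferase, by 0.63 ± 0.08. Of 17 genes of iron-sulfur clusters and heme, 3 fell and 1 rose: the mitochondrial iron importer Slc25a37 changed by -0.69 ± 0.11, the cluster chaperone Hscb by -0.55 ± 0.13, Isca2 by -0.28 ± 0.08, and Alas2, the erythroid enzyme of heme synthesis, by 1.16 ± 0.12. Of 17 peroxisome partners, 3 fell and 2 rose, with Acot4 at 0.78 ± 0.19, Decr2 at -0.71 ± 0.20 and Acaa1b at -0.68 ± 0.11 changing most. Of 13 surfactant partners 2 fell in liver, Chpt1 at -0.78 ± 0.09 and Adgrf5 at -0.30 ± 0.09, and of 13 translation partners 1 rose, the ribosome rescue factor Pelo at 0.50 ± 0.08. In lung, where 0.594% of all genes passed, 4 partners did: Nr5a2 at -0.70 ± 0.13, Acox2 at -0.47 ± 0.10, Acaa1b at 0.67 ± 0.11 and Cyp2c29 at 0.90 ± 0.17. The ABC genes with other symbols (Cftr, Tap1 and Tap2) and the channel pores Kcnj8 and Kcnj11 gave no call by limma in either organ, with none in liver and 3 in lung at an unadjusted p under 0.05.

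Markers of cell types were read beside these genes, where 13.6% of all genes were called in liver and 0.594% in lung. None of 8 hepatocyte markers was called by limma (3 had an unadjusted p under 0.05), and their mean log2 level was 13.37 to 13.47 in virgin and 13.49 to 13.53 in pregnant pools. Of 5 cholangiocyte markers 1, Cldn7, fell (-0.51 ± 0.10), and the mean level was 4.93 to 5.17 in virgin and 4.54 to 4.93 in pregnant pools. Of 7 neutrophil markers 3 rose (Ngp at 1.89 ± 0.48, S100a9 at 1.28 ± 0.18 and S100a8), with a mean level of 5.13 to 5.30 in virgin and 5.90 to 6.30 in pregnant pools. Of 8 Kupffer cell and macrophage markers 1, Timd4, fell, with a mean level of 8.68 to 8.86 and 8.38 to 8.77, and of 7 endothelial markers 1, Kdr, fell, with 6.33 to 6.57 and 6.11 to 6.42. Of 6 stellate cell markers 1, the retinol-esterifying enzyme Lrat, fell, and the mean level was 7.35 to 7.43 in virgin and 7.12 to 7.22 in pregnant pools. Of 7 pancreatic acinar markers 2 rose and 2 fell, with Cela1 at -1.35 ± 0.20, Cela2a at -0.87 ± 0.20 and Clps at 0.70 ± 0.14. Of 7 proliferation markers 2 rose (Birc5 and Mki67), of 6 platelet markers 1 rose (Ppbp), of 6 erythroid markers 1 rose and 1 fell, and of 6 airway cell markers 1 fell. Of the alveolar type II, adipocyte and mammary epithelium markers, none was called in either organ, with 2 type II markers in liver at an unadjusted p under 0.05. In lung the calls among markers were 1 neutrophil gene that rose and 1 stellate cell gene that fell. All 7 neutrophil markers were higher in pregnant lung, with a median of 0.89 and 4 at an unadjusted p under 0.05 by limma. Of 6 stellate cell markers, 5 were higher there and only the called 1 was lower. None of 7 proliferation markers was called by limma in lung, but all 7 were lower in pregnancy, with a median of -0.82 and 5 at an unadjusted p under 0.05, and the pools did not overlap in any of them. None of 6 platelet markers was called there either, but all 6 were higher, with a median of 0.49 and 4 at an unadjusted p under 0.05. The part of these cell types in the changes of ABC genes was not tested. The 3′ minus 5′ difference of Gapdh probe sets, a measure of RNA integrity, was 0.24 to 0.64 in lung and 0.26 to 0.70 in liver.

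Promoter windows of RefSeq (GRCm38.p6), from 250 bases before to 50 after a start site, were given for 35 of the 45 genes and searched on both strands. Some genes have several windows, and the 35 genes have 42. AGGTCA, a nuclear receptor element, was in a window of 5 of the 35 genes (Abcb11, Abcb6, Abcc10, Abcc2 and Abcg2). It was in 7 of the 42 windows and in 16.3% of all 32851 windows. Its direct repeat with 4 bases between the copies, which contains it, was in none of the 42 windows and in 0.0152% of all windows. TGACNNNGC, the core of the antioxidant element, was in 5 of the 35 genes, 7 of the 42 windows and 12.4% of all windows. GGGCGG, the GC box, was in 18 of the 35 genes, 21 of the 42 windows and 35.7% of all windows. TATAAA was in 6 of the 35 genes, 7 of the 42 windows and 13.6% of all windows. CCAAT was in 14 of the 35 genes, 15 of the 42 windows and 37.4% of all windows. The window of Abcg5 and the nearer window of Abcg8 overlap by 209 bases, and their TATAAA match is the one printed above, counted for both genes. The earlier window of Abcg8 held no match to TATAAA.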

How the data were processed

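RNA from 12 pools of lung or liver was hybridised to single-colour Affymetrix mouse arrays. The deposited log2 values had been normalized and summarised per probe set by the authors with RMA in the affy package, per the submitters' processing notes, whose versions and genome build are not given in the sources used here. Of 45101 probe sets, 64 controls were left out, and 34945 of the others carry a single gene symbol in the platform annotation, 932 several and 9160 none.

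The ABC genes, partner lists and marker lists were chosen with earlier results of these data known. For each of 18193 genes the probe set with the highest mean was fitted in limma 3.58.1 (R 4.3.3) with 4 group means over all 12 arrays and empirical Bayes moderation. P-values were adjusted over all genes by Benjamini-Hochberg, with calls at an adjusted p under 0.05. The contrast between pregnant organs was added after values were seen. Data were simulated with each gene's spread shared by all 4 groups, with far fewer genes changed than were called in pregnant liver. Of genes changed by 0.5 in simulated liver 46% were recovered, and of those changed by 1, 96%.

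Values per pool were given for called genes with changes of at least 0.5, for genes called between organs and for 14 landmark genes, and in each partner list the 3 largest called changes were named. Other genes were named after their values were seen. Alternatives covered the arrays fitted, dim genes, the probe set, normalization, the variance model, array weights, blocks, thresholds and each array left out. Pool numbers were checked for pairing: 12 correlations of deviations between same-numbered pools lay between -0.11 and 0.11, so they were not used as pairs. All 45 genes matched RefSeq (GRCm38.p6) by gene ID, which was used for names, neighbours and promoters. Protein sequences were not used here.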

Additional observations from a re-analysis of the deposited data

Results flagged for a closer look

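In 7 ABC genes the pregnancy change differed between the organs by a test of the difference itself (lung change minus liver change, limma, adjusted over all genes). In 6 of these the gene was lower in pregnant liver: Abcc3 with a difference of 3.26, Abcg5 with 1.08, Abca8a with 0.94, Abcc4 with 0.82, Abcg8 with 0.73 and Abcb6 with 0.56. Abcg5 was under the median of all probe sets in lung in both states, so its lung change and its difference are uncertain. Abcf2, which was higher in pregnant liver, had a difference of -0.53, and this was the weakest of the 7. Without both liver pool 3 arrays, the arrays without spike-in signal, all 7 passed.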

How the results depend on the processing

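Of the 13 ABC genes called in liver, 6 (Abca8a, Abcb6, Abcc3, Abcc4, Abcg5 and Abcg8) passed under all 21 alternatives. The count was 8 with array weights, 7 at an adjusted p under 0.01 and 6 with a log2 change of at least 0.5 required, and it was 8 to 12 with 1 liver array left out. Under the other alternatives it was 9 to 14. Abcd4 lost its call with suffixed probe sets left out (-0.30, adjusted p = 0.0664). In lung the count stayed at 0. The count for the difference between organs was 5 to 8, and that between virgin organs 28 to 37, with 33 to 35 when 1 virgin array was left out. Abca8a lost its call between virgin organs under both quantile normalizations. With the pool number as a replicate block, the counts were 11 in liver, 0 in lung, 7 for the difference and 36 between virgin organs. With the pool number within each tissue as a replicate block, which was added after the data were seen, they were 9, 0 and 6. Over 21 named genes and these settings, 1844 values were recomputed: 1738 stayed on the same side of the threshold, 92 lost the call, 14 gained it and no called value reversed. In 37 cases the sign changed where neither value passed. Genes under the array median are the least certain. Changes of 0.5 were recovered in 46% of simulated liver cases, where far fewer genes were changed than were called in pregnant liver. The share recovered in the real liver data was not measured.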

Other observations

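A further 47 probe sets measure 26 of the ABC genes, and 20 of them were under the median level in all 4 groups. Among the 13 genes called in liver, 5 have 1 further probe set each. None of these 5 was called, 3 had the same sign as the probe set used and 2 (Abca5 and Abcb1a) the opposite sign. These calls were adjusted over all 34945 probe sets with a single symbol, not over 18193 genes. In that limma fit the probe sets used for Abca5 and Abcg3 were not called either (adjusted p = 0.0631 and 0.0533). Neither was the only probe set of Abcg2 (adjusted p = 0.0626). The further probe set of Abcg3 gave -0.34 ± 0.11. Between virgin organs, 25 further probe sets of called genes were called. For Abcc5 and Abce1 such a probe set had the opposite sign: the probe set used for Abcc5 was higher in lung by 0.38 ± 0.13 and a further one was -0.63 ± 0.11, and for Abce1 the values were -0.47 ± 0.09 and 0.68 ± 0.12. Both opposing probe sets were under the median level in all 4 groups. Every other further probe set of these 2 genes had the sign of the one used, with -0.84 ± 0.11 for that of Abce1. Within Abcc5 and Abce1 the direction between organs thus differed only at those 2 dim probe sets. Further probe sets that were not called also differed in sign from the one used, such as -0.21 ± 0.12 against 0.67 ± 0.11 for Abca9 and 0.12 ± 0.10 against -0.50 ± 0.16 for Abcc10. For Abcb9 the probe set used was not called (0.04 ± 0.11), and a further dim one was called at -0.33 ± 0.12.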
